A study of Caenorhabditis elegans with 16 samples.

Results

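Crossover (CO) designation and resolution in *C. elegans* meiosis was followed here at the level of transcripts, through 10 genes whose rows were taken by name from a table of 42048 genes: *msh-5*, *him-14*, *cosa-1*, *zhp-3*, *mus-81*, *slx-1*, *him-18*, *xpf-1*, *him-6* and *rtel-1*. All 10 were found under these names, and all 10 passed the filter on low counts that kept 11776 genes for testing. Whole-worm RNAseq was available for 16 libraries, in 4 groups of 4 biological replicates: wild-type N2 worms without auxin, N2 worms on auxin, *syp-2::AID* worms without auxin and *syp-2::AID* worms on auxin. Worms were young adults at 18 to 24 h after the L4 stage, and the treated groups spent 4 h on seeded plates with 4 mM auxin (indole-3-acetic acid). In the *syp-2::AID* strain the synaptonemal complex (SC) protein SYP-2 carries an auxin-inducible degron tag, and the plant F-box protein TIR1, which needs auxin to target the tag for destruction, is expressed from the *ieSi38* transgene under the germline *sun-1* promoter. N2 worms carry neither the tag nor TIR1, so their response to auxin plates is the background against which the response of *syp-2::AID* worms was set. The sources used here do not say whether plates without auxin held its solvent, and effects of auxin and of a solvent cannot be told apart. Each library is a pool of whole adults, in which fewer germline nuclei and less RNA per nucleus cannot be told apart.

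During meiotic prophase, programmed DNA double-strand breaks (DSBs) are processed into joint molecules between homologues, and a small number of these are designated to become COs. MSH-5 and HIM-14 (the worm MSH-4) form a MutS-like complex that stabilises such intermediates, and the cyclin-related COSA-1 and the RING-finger protein ZHP-3 accumulate with it at CO-designated sites, which in worms form in the context of the SC. Joint molecules are then resolved by structure-specific nucleases (MUS-81, SLX-1 and XPF-1, organised by the SLX4-like scaffold HIM-18) together with the BLM helicase HIM-6, while the helicase RTEL-1 limits the number of COs.

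Total counts per library lay between 13964761 and 18741524, which gave each of the 10 genes between 183 and 1448 reads in every library. The *syp-2* transcript, whose protein is the target of the degron, had a mean of 25.4 ± 1.97 CPM (read counts over the scaled total of the library; SD, n = 4) in *syp-2::AID* worms on auxin and 25.05 ± 2.01 CPM (SD, n = 4) in untreated ones, which checks no label, since the degron removes the protein and not its mRNA. Defining germline markers were all detected in each group, with a summed level over 10 genes between 2076 and 3713 CPM, whereas 39 sperm genes together reached only 6.07 to 84.3 CPM. Replicates 3 and 4 in the *syp-2::AID* group on auxin differed from the remaining 14 libraries in a feature of the whole table. In these 2 the level of a gene fell with its exon length (Spearman's rho across genes -0.545 and -0.624), whereas rho was 0.0515 to 0.284 in the other 14. Ribosomal protein genes took up to 19.0% of the counts in these 2, and 11.4 to 15.4% elsewhere. The main results on auxin in *syp-2::AID* worms are given with and without them. Fits over all 16 libraries share a spread, so these 2 also bear on the p-values of comparisons that do not hold them.

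No transcript of the 10 genes passed the test in any of the comparisons between groups. In *syp-2::AID* worms on auxin, 0 of 10 were called by edgeR's quasi-likelihood test with Benjamini-Hochberg adjustment at 0.05, beside 7.2% of all genes tested. Before adjustment 2 of 10 (*zhp-3* and *him-6*) had a p under 0.05, beside 30% of all genes, as they did in limma-voom, and DESeq2 called 0 of 10 with 1 of 10 under 0.05 unadjusted. In N2 worms on auxin 0 of 10 were called beside 5.43% of all genes, and 0 of 10 had an unadjusted p under 0.05 by edgeR, DESeq2 or limma-voom, beside 18.5% of all genes by edgeR. The difference between both responses to auxin was called for 0 of 10, again with none under 0.05 unadjusted by any of these tools, beside 0.017% of all genes called and 17.6% under 0.05 by edgeR.

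The strain comparisons gave the same counts of calls. Between untreated strains 0 of 10 were called, beside 0.875% of all genes, with 1 of 10 under 0.05 unadjusted by edgeR (17.6% of all genes), 2 by DESeq2 and 1 by limma-voom. Between auxin-treated strains 0 of 10 were called, beside 1.05% of all genes, with 3 of 10 under 0.05 unadjusted by edgeR (27.4% of all genes), 1 by DESeq2 and 2 by limma-voom. With the trend of level with exon length removed from each library, still none of the 10 was called, but 3 of 10 were under 0.05 unadjusted on auxin in *syp-2::AID* worms (24.7% of all genes), 3 of 10 for the difference between responses (16%) and 6 of 10 between treated strains (20.1%). Without *syp-2::AID* auxin replicates 3 and 4 these 3 counts were 0. In that fit none of the 10 was called in any comparison. On auxin in N2 worms 0 of 10 were under 0.05 unadjusted there (29.3% of all genes). Between untreated strains 2 of 10 were (29.4%). These comparisons share groups of libraries with each other and are not independent.

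**Figure D1:**
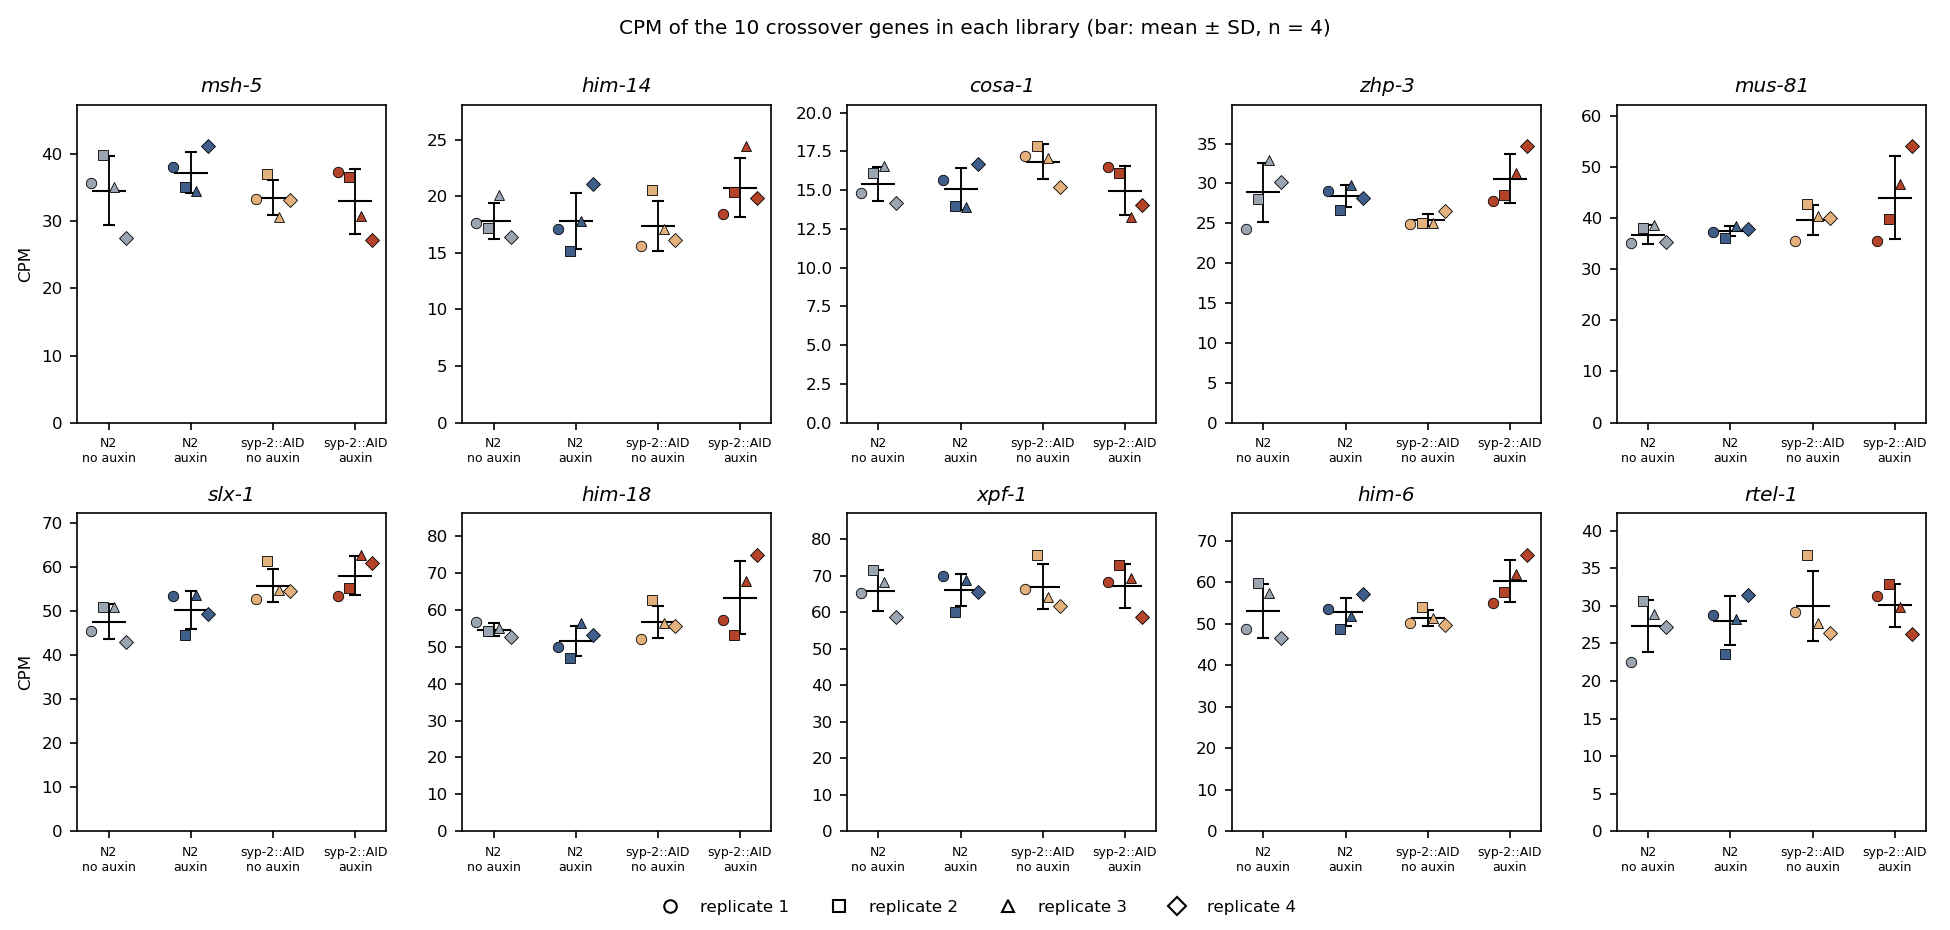
Level of the 10 genes in each of 16 libraries, in CPM on a linear axis from 0, with 1 point per library (shape gives the replicate number) and the mean ± SD of each group of 4. The untreated *syp-2::AID* libraries lie below the auxin-treated ones without overlap for *zhp-3* and *him-6* only.

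*msh-5*, on chromosome IV, had overlapping levels in untreated and auxin-treated *syp-2::AID* worms. It was at 33.3, 37.1, 30.7 and 33.2 CPM in the 4 untreated *syp-2::AID* libraries and at 37.4, 36.7, 30.8 and 27.2 CPM in the auxin-treated ones. In N2 worms it was at 35.8, 39.9, 35.1 and 27.6 CPM without auxin and at 38.1, 35.2, 34.5 and 41.3 CPM on auxin. The groups overlapped in both strains, and the lowest treated *syp-2::AID* library was replicate 4, 1 of the 2 that stand apart. The log2 fold change on auxin was -0.02 (SE 0.12, adjusted p = 0.913, edgeR) in *syp-2::AID* worms and 0.11 (SE 0.12, adjusted p = 0.694) in N2 worms. The sign in *syp-2::AID* worms turned without replicates 3 and 4, to 0.14 (adjusted p = 0.793), and after removal of the exon length trend of each library, to 0.32 (adjusted p = 0.163).

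Its partner *him-14* (chromosome II) followed *msh-5* only loosely from library to library (Pearson's r of the deviations from group means 0.24 over 16 libraries). It was at 15.6, 20.5, 17.1 and 16.1 CPM in untreated *syp-2::AID* libraries and at 18.4, 20.4, 24.4 and 19.8 CPM in treated ones, and N2 libraries spanned 15.2 to 21.1 CPM with both treatments. The groups of *syp-2::AID* worms overlapped through untreated replicate 2, and the highest of all 16 libraries was auxin replicate 3. On auxin, *him-14* had a log2 fold change of 0.26 (SE 0.13, adjusted p = 0.180, edgeR) and its difference from the response in N2 worms was also 0.26 (SE 0.18, adjusted p = 0.440). Without auxin replicates 3 and 4 the fold change was 0.16 (adjusted p = 0.799), and with the exon length trend removed 0.45 (adjusted p = 0.0899), both on the log2 scale. The number of *msh-5* reads per *him-14* read was 2.03, 1.80, 1.26 and 1.37 in auxin replicates 1 to 4 of *syp-2::AID* worms, so that both libraries that stand apart gave the lowest values. In the other groups the mean ratio was 1.95 ± 0.18 (untreated *syp-2::AID*), 1.94 ± 0.29 (untreated N2) and 2.11 ± 0.19 (N2 on auxin; SD, n = 4 each). *msh-5* has 4216 nt of exon and *him-14* 2627 nt, and the part of the length trend in this ratio was not tested. *him-14* overlaps *nos-2*, a germline gene on the opposite strand, over 154 nt of exon (5.86%), and with the strand setting of the counting not known from the sources used here, some of its reads may belong to that gene.

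The marker of CO-designated sites *cosa-1* (chromosome III) had the lowest read numbers of the 10 genes and the only log2 fold change under -0.1 on auxin in *syp-2::AID* worms. It was at 17.2, 17.8, 17.04 and 15.2 CPM without auxin and at 16.5, 16.1, 13.3 and 14.04 CPM on auxin, so that the lowest untreated library lay among the treated ones. Its level in N2 worms was 14.2 to 16.6 CPM without auxin and 13.9 to 16.7 CPM on auxin. The estimate in *syp-2::AID* worms, a log2 fold change of -0.17 (SE 0.11, adjusted p = 0.286, edgeR), moved to -0.05 (adjusted p = 0.949) without auxin replicates 3 and 4. With the exon length trend removed it was -0.28 and not called. Of its 1270 nt of exon, 178 nt (14%) overlap Y71H2AM.12 on the opposite strand, so that reads of both genes may be mixed here as well.

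*zhp-3* (chromosome I) was the gene of the designation group whose libraries separated. It was at 24.97, 25.06, 25.04 and 26.53 CPM in untreated *syp-2::AID* libraries and at 27.8, 28.6, 31.2 and 34.7 CPM in treated ones. All treated libraries were above all untreated ones, with the highest values in replicates 3 and 4, and the untreated libraries lay closer together (coefficient of variation 2.96%) than those of the other 3 groups for this gene. N2 libraries spanned 24.2 to 33.0 CPM without auxin and 26.7 to 29.9 CPM on auxin, so the untreated *syp-2::AID* worms stood in the lower part of the N2 range and the treated ones reached beyond its upper end in replicate 4. The log2 fold change in *syp-2::AID* worms was 0.27 (SE 0.10, 95% interval 0.06 to 0.48, adjusted p = 0.102, edgeR), and an exact two-sided permutation test of 4 against 4 libraries gave p = 0.0286, the smallest that 70 splits allow (0.381 after adjustment over 40 such tests). The adjusted p ranged from 0.0458 to 0.689 over 24 alternatives, and passed the threshold in 1 of them, without auxin replicate 1 (log2 fold change 0.31). Without auxin replicates 3 and 4 the log2 fold change was 0.15 (adjusted p = 0.689). The difference from the response of N2 worms was 0.29 (SE 0.14, adjusted p = 0.299, edgeR).

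Among the nucleases, *mus-81* (chromosome I, a catalytic subunit that pairs with EME-1) was at 35.6, 42.7, 40.4 and 40.1 CPM in untreated *syp-2::AID* worms and at 35.5, 39.8, 46.8 and 54.1 CPM on auxin. Replicate 1 of the treated worms was level with the lowest untreated library, replicate 2 lay within the untreated range, and replicates 3 and 4 were above it. In N2 worms the level hardly varied, from 35.2 to 38.7 CPM without auxin and from 36.1 to 38.5 CPM on auxin. Its log2 fold change in *syp-2::AID* worms was 0.15 (SE 0.11, adjusted p = 0.347, edgeR) and turned to -0.08 (adjusted p = 0.866) without replicates 3 and 4. With the exon length trend removed it stayed above 0 and was not called.

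The scaffold gene *him-18* (chromosome III) followed the same libraries. It was at 52.2, 62.7, 56.6 and 55.6 CPM without auxin and at 57.2, 53.2, 67.9 and 75.0 CPM on auxin in *syp-2::AID* worms, where again only replicates 3 and 4 exceeded every untreated library. N2 libraries lay between 47.0 and 56.8 CPM over both treatments. Its estimated log2 fold change in *syp-2::AID* worms was 0.16 (SE 0.10, adjusted p = 0.288, edgeR) and -0.04 (adjusted p = 0.943) without replicates 3 and 4. With the exon length trend removed it was 0.29 and not called. Between auxin-treated strains the log2 difference was 0.29 (SE 0.10, adjusted p = 0.108, edgeR), the largest of the 10 in that comparison. With the exon length trend removed this difference was 0.44, not called. It passed the threshold without *syp-2::AID* auxin replicate 1 (0.34, adjusted p = 0.0437) and without auxin replicate 2 (0.37, adjusted p = 0.0256), as *mus-81* did without auxin replicate 1 (0.32, adjusted p = 0.0421 against 0.180 with all libraries), and it was 0.10 (adjusted p = 0.714) without replicates 3 and 4. Exons of *mus-81* and *him-18* overlap C43E11.9 and T04A8.18 on the opposite strand over 42 and 43 nt.

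*slx-1* (chromosome I), which encodes the nuclease that HIM-18 binds, had its larger log2 differences between strains and its smaller ones between treatments, none of them past the test. Untreated N2 libraries were at 45.5, 50.8, 50.8 and 42.9 CPM and untreated *syp-2::AID* libraries at 52.5, 61.3, 54.6 and 54.4 CPM. These groups did not overlap (exact two-sided permutation p = 0.0286, the smallest possible, and 0.381 adjusted), and the log2 difference was 0.23 (SE 0.09, 95% interval 0.04 to 0.42, adjusted p = 0.202, edgeR). On auxin the levels were 53.4, 44.4, 53.5 and 49.3 CPM in N2 worms and 53.3, 55.1, 62.7 and 60.8 CPM in *syp-2::AID* worms, where the lowest *syp-2::AID* library fell just under the 2 highest N2 libraries. This log2 difference was 0.21 (SE 0.09, adjusted p = 0.156, edgeR), close to the one without auxin, and the log2 fold change on auxin was 0.06 (SE 0.09, adjusted p = 0.679) in *syp-2::AID* and 0.08 (SE 0.09, adjusted p = 0.697) in N2 worms. The adjusted p of the untreated strain difference stayed between 0.0586 and 0.453 over 24 alternatives, and its log2 value between 0.14 and 0.26. Its exons share 6 nt with *npp-6* on the same strand.

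*xpf-1* (chromosome II), the catalytic partner of ERCC-1, had group means close to each other. Its group means ranged from 65.9 ± 5.55 CPM (untreated N2) to 67.3 ± 6.03 CPM (auxin-treated *syp-2::AID*; SD, n = 4 each), a ratio of 1.02 between the highest and the lowest. Single libraries varied from 58.6 to 75.7 CPM, far more than the group means did. The log2 fold change was 0.01 (SE 0.09, 95% interval -0.19 to 0.20, adjusted p = 0.965, edgeR) in *syp-2::AID* worms, 0.08 (adjusted p = 0.888) without replicates 3 and 4 and 0.22 (adjusted p = 0.248) with the exon length trend removed.

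Of the helicase genes, *him-6* (chromosome IV) was at 50.2, 54.1, 51.3 and 49.8 CPM without auxin and at 54.9, 57.6, 61.9 and 66.7 CPM on auxin in *syp-2::AID* worms. All treated libraries were above all untreated ones, if narrowly for replicate 1 (exact two-sided permutation p = 0.0286, the smallest possible, and 0.381 adjusted). N2 libraries spanned 46.6 to 59.7 CPM without auxin and 48.8 to 57.2 CPM on auxin, and thus covered the whole untreated range of *syp-2::AID* worms. The log2 fold change in *syp-2::AID* worms was 0.23 (SE 0.09, 95% interval 0.04 to 0.43, adjusted p = 0.120, edgeR). It was 0.13 (adjusted p = 0.733) without replicates 3 and 4 and 0.51 (adjusted p = 0.0542) with the exon length trend removed, and the difference from the response of N2 worms was 0.24 (SE 0.13, adjusted p = 0.348).

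The second helicase gene, *rtel-1* (chromosome I), gave a log2 fold change near 0 on auxin. It was at 29.2, 36.8, 27.7 and 26.4 CPM without auxin and at 31.4, 32.9, 29.8 and 26.3 CPM on auxin in *syp-2::AID* worms, and N2 libraries spanned 22.6 to 31.5 CPM. The highest library was an untreated one and the groups overlapped throughout. The log2 fold change in *syp-2::AID* worms was 0.00 (SE 0.13, 95% interval -0.27 to 0.27, adjusted p = 0.993, edgeR), 0.10 (adjusted p = 0.921) without replicates 3 and 4 and 0.24 (adjusted p = 0.309) with the exon length trend removed.

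Over all 10 genes, 2 (*zhp-3* and *him-6*) had auxin-treated *syp-2::AID* libraries that were all higher than the untreated ones, beside 7.75% of all genes tested, and 0 were all lower, beside 5.27%. Between untreated strains 1 gene (*slx-1*) was higher in *syp-2::AID* worms without overlap, beside 6.1% of all genes, and 0 were lower, beside 7.53%. No gene of the 10 separated N2 libraries by auxin or auxin-treated libraries by strain, comparisons in which 8.79% and 6.17% of all genes were higher and 8.4% and 5.41% lower without overlap. In all, 40 such comparisons of a single gene were made.

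**Figure D2:**
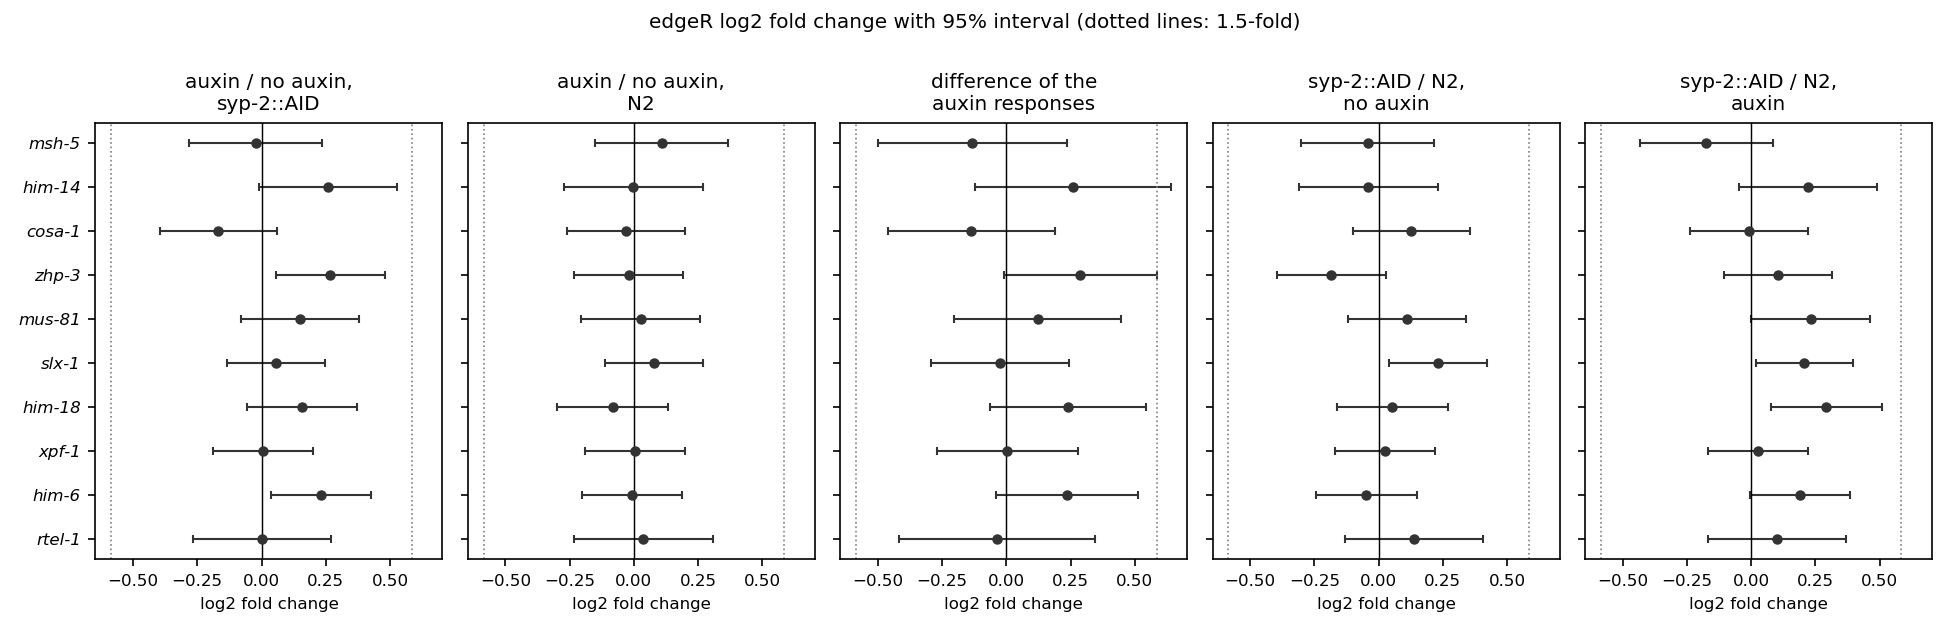
Log2 fold change (points) and 95% interval (bars) from edgeR for each of the 10 genes in 5 comparisons, with dotted lines at 1.5-fold in either direction. Every interval lies inside 1.5-fold in the 4 comparisons of groups, and the largest estimate is 0.29.

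The intervals around these estimates depended on how the 2 libraries that stand apart were handled. In *syp-2::AID* worms on auxin, with all libraries and no correction, the 95% intervals of all 10 genes lay within 1.5-fold in either direction, and those of 4 within 1.25-fold. In N2 worms all 10 lay within 1.5-fold and 9 within 1.25-fold. Both strain comparisons had all 10 within 1.5-fold, and the difference between responses, which carries the error of 4 groups, had 8 of 10. Without auxin replicates 3 and 4, all 10 lay within 1.5-fold in each of the 5 comparisons. With the exon length trend removed, 7 of 10 did so on auxin in *syp-2::AID* worms (highest bound 0.85 on the log2 scale, for *him-6*), 5 of 10 between treated strains and 2 of 10 for the difference between responses.

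The median log2 fold change of the 10 genes was 0.10 in *syp-2::AID* worms, where the median of all genes tested was 0.03, and 0.00 in N2 worms, where that of all genes was 0.01. For auxin-treated strains it was 0.15 beside 0.04, and for untreated strains 0.04 beside 0.02. Without *syp-2::AID* auxin replicates 3 and 4, the median of the 10 genes on auxin in *syp-2::AID* worms was 0.086, beside -0.006 for all genes. In that fit it was 0.096 beside -0.0008 between treated strains and 0.051 beside -0.005 for the difference between responses. With the exon length trend removed, the median of the 10 genes was 0.23 beside -0.01 for all genes on auxin in *syp-2::AID* worms, 0.29 beside 0.03 between treated strains and 0.30 beside 0.07 for the difference between responses, against 0.06 beside -0.02 for that difference without the correction.

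The 10 genes did not move as 1 unit from library to library. Among *syp-2::AID* libraries on auxin, 5 genes (*zhp-3*, *mus-81*, *slx-1*, *him-18* and *him-6*) were higher in both replicates 3 and 4 than in both replicates 1 and 2, as were 39% of all genes tested. Another 3 (*msh-5*, *cosa-1* and *rtel-1*) were lower in both, as were 35.1% of all genes. The largest differences between these pairs of libraries were those of *mus-81* (log2 ratio 0.42), *him-18* (0.37) and *msh-5* (-0.35). By exon length, *zhp-3*, *slx-1*, *mus-81* and *him-18* (1293 to 2208 nt) were higher in replicates 3 and 4 by log2 ratios of 0.19 to 0.42, and *xpf-1*, *rtel-1* and *msh-5* (2899, 3133 and 4216 nt) had log2 ratios of -0.14, -0.20 and -0.35. *cosa-1*, the shortest at 1270 nt, had -0.25, and *him-14* (2627 nt) and *him-6* (3132 nt) each had 0.19. No test of length was made over the 10 genes.

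**Figure D3:**
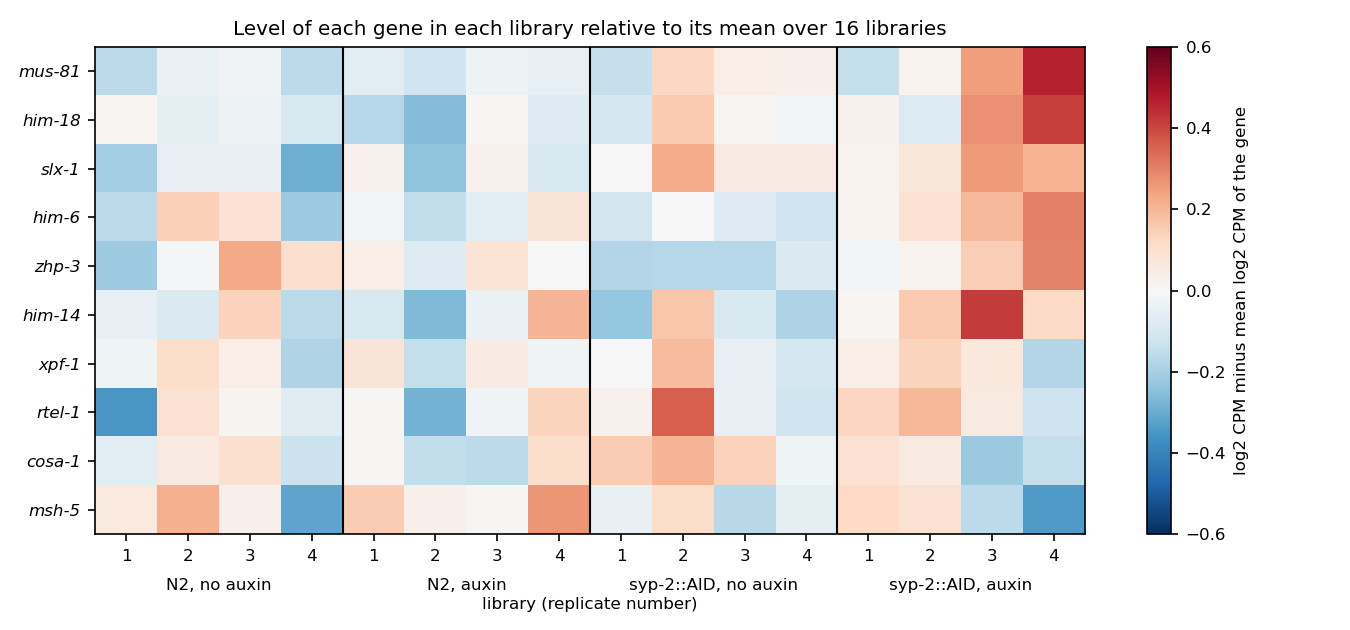
Deviation of each gene (rows) in each library (columns) from its own mean over 16 libraries, in log2 CPM, red above and blue below. In *syp-2::AID* auxin replicates 3 and 4, *mus-81*, *him-18*, *slx-1*, *him-6*, *zhp-3* and *him-14* are above their means and *cosa-1* and *msh-5* below.

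Within groups, the levels of some pairs varied together. As a description over 16 libraries, which share depth and composition and include the 2 that stand apart, Pearson's r of the deviations from group means was 0.83 for *mus-81* and *him-18*, 0.78 for *slx-1* and *him-6*, 0.75 for *xpf-1* and *rtel-1* and 0.74 for *msh-5* and *cosa-1*. The lowest was -0.51, for *msh-5* and *zhp-3*, whose products meet at CO-designated sites. Among the 11776 genes tested, the nearest by Pearson's r of log2 CPM over 16 libraries was *mfn-1* for *msh-5* (0.95) and F33A8.4 for *him-6* (0.96). It was *gop-2* for *mus-81* (0.95), *tag-345* for *slx-1* (0.94) and T12B5.15 for *him-18* (0.94). The highest values for *him-14*, *cosa-1*, *zhp-3*, *xpf-1* and *rtel-1* were lower, between 0.83 and 0.86. Each is the highest of many correlations over libraries that include the 2 that stand apart, and none was tested.

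Without auxin replicates 3 and 4, the log2 fold changes on auxin in *syp-2::AID* worms lay between -0.08 (*mus-81*) and 0.16 (*him-14*), and the smallest adjusted p was 0.689. With the exon length trend removed they lay between -0.28 (*cosa-1*) and 0.51 (*him-6*), and 0 of 10 were called. Whether a gene came out above or below 0 thus depended on how these 2 libraries were handled for *msh-5*, *mus-81*, *slx-1* and *him-18*.

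**Figure D4:**
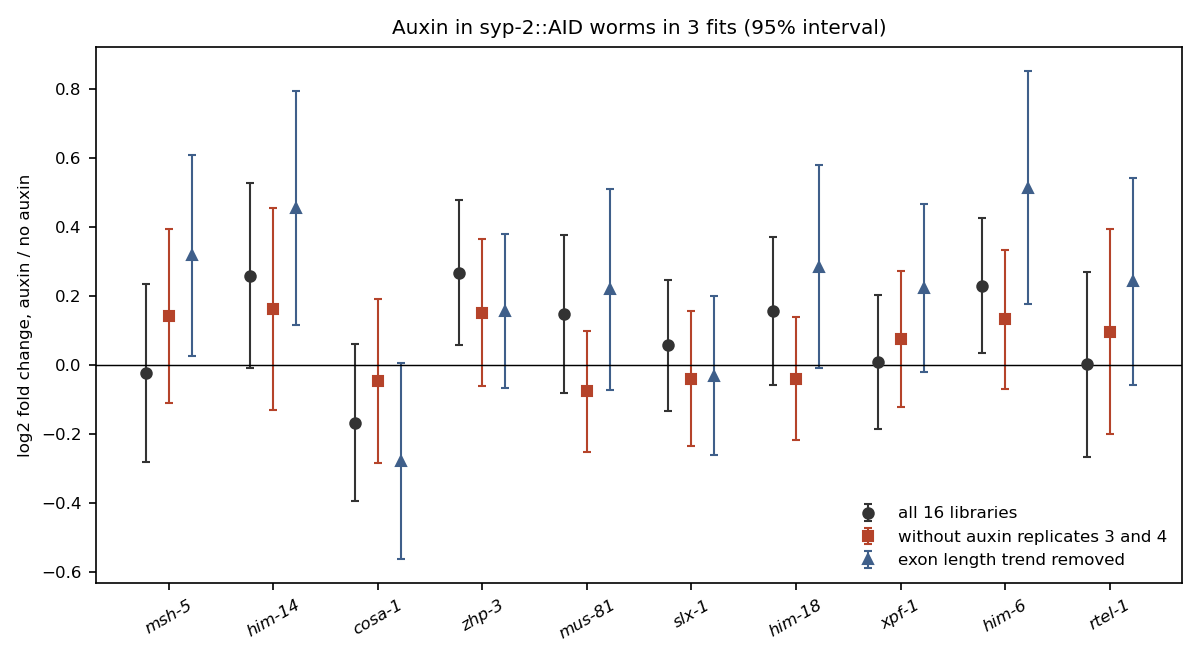
Log2 fold change on auxin in *syp-2::AID* worms with 95% intervals for the 10 genes, from all 16 libraries, without auxin replicates 3 and 4, and after removal of the exon length trend of each library. *msh-5*, *mus-81*, *slx-1* and *him-18* change sign and *him-6* ranges from 0.13 to 0.51 between these fits.

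The genes also differed among themselves in level per kb of exon. Averaged over 16 libraries, *slx-1* was the highest, at 36.998 CPM per kb, and was above *him-18* (25.6) in 16 of 16 libraries. Next came *xpf-1* (22.96), *zhp-3* (21.9) and *mus-81* (20.0), neighbours whose ranges overlapped and whose order turned in 3 to 4 of 16 libraries. *him-6* (17.4) was below *mus-81* and above *cosa-1* (12.3) in 16 of 16 libraries, and it was between these latter 2 that the ranges over libraries did not overlap. *rtel-1* (9.22), *msh-5* (8.21) and *him-14* (7.02) were the lowest. The MutS-like genes were thus on average below the 4 genes of the nuclease group in level per length of exon.

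Partner genes were taken from a list of 17 other genes of CO designation and resolution, of which none was called in any of the 5 comparisons by edgeR, DESeq2 or limma-voom. On auxin in *syp-2::AID* worms 2 of 17 had an unadjusted p under 0.05 by edgeR, and the median log2 fold change was 0.06. *ercc-1* (partner of XPF-1), *eme-1* (partner of MUS-81) and *top-3* (the topoisomerase that acts with HIM-6) had log2 fold changes of 0.21, 0.34 and 0.17 in *syp-2::AID* worms and of -0.28, -0.14 and -0.20 in N2 worms (edgeR adjusted p between 0.160 and 0.685). Without auxin replicates 3 and 4, all 3 values in *syp-2::AID* worms turned, to -0.08, -0.03 and -0.05, and the median of the 17 genes was -0.03. *eme-1* was at 27.1, 32.1, 45.5 and 48.7 CPM in auxin replicates 1 to 4 of *syp-2::AID* worms, with both high values in replicates 3 and 4, beside 28.9 to 33.2 CPM in untreated *syp-2::AID* worms. *ercc-1* was at 26.7 to 31.1 CPM in untreated N2 worms and at 21.6 to 24.8 CPM in N2 worms on auxin, without overlap. That comparison does not hold *syp-2::AID* auxin replicates 3 and 4, which bear on it through the shared spread, scaling and filter. This fall passed edgeR's test in the fit without them (adjusted p = 0.0297) but not with all libraries (0.262). The same fit called 3 of the 17 between untreated strains, beside 1511 of all 12193 genes. These were *gen-1* as higher in *syp-2::AID* worms (0.29) and *ercc-1* (-0.31) and *mlh-1* (-0.22) as lower, named after their values were seen. On auxin in N2 worms that fit called 1577 of all genes. The number of *xpf-1* reads per *ercc-1* read was 3.33 and 3.17 in auxin replicates 1 and 2 and 2.06 and 1.99 in replicates 3 and 4.

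Of the RING-finger genes related to *zhp-3*, *zhp-2* was the most abundant, at 29.4 CPM per kb over 16 libraries, followed by *zhp-3* itself, *zhp-1* at 15.5 and *zhp-4* at 6.89. In the count table these relatives stand under the names D1081.9 (*zhp-2*), F55A12.10 (*zhp-1*) and Y39B6A.16 (*zhp-4*). Exons of *zhp-2* overlap D1081.6 over 272 nt (29.2%) and those of *zhp-4* overlap *pro-3* over 440 nt (26.6%), on the same strand. Reads of these genes may be lost or mixed there, which leaves the places of *zhp-2* and *zhp-4* in this order uncertain. Their log2 fold changes on auxin in *syp-2::AID* worms were 0.00 (*zhp-2*), 0.40 (*zhp-1*) and 0.14 (*zhp-4*), with edgeR adjusted p of 0.988, 0.197 and 0.520. Without auxin replicates 3 and 4 they were -0.05, -0.09 and -0.12, so that the values of *zhp-1* and *zhp-4* turned. *rmh-1* (M01E11.3), whose product acts in a complex with HIM-6 and TOP-3, was at -0.04 (adjusted p = 0.846), and at 0.06 without these libraries.

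**Figure D5:**
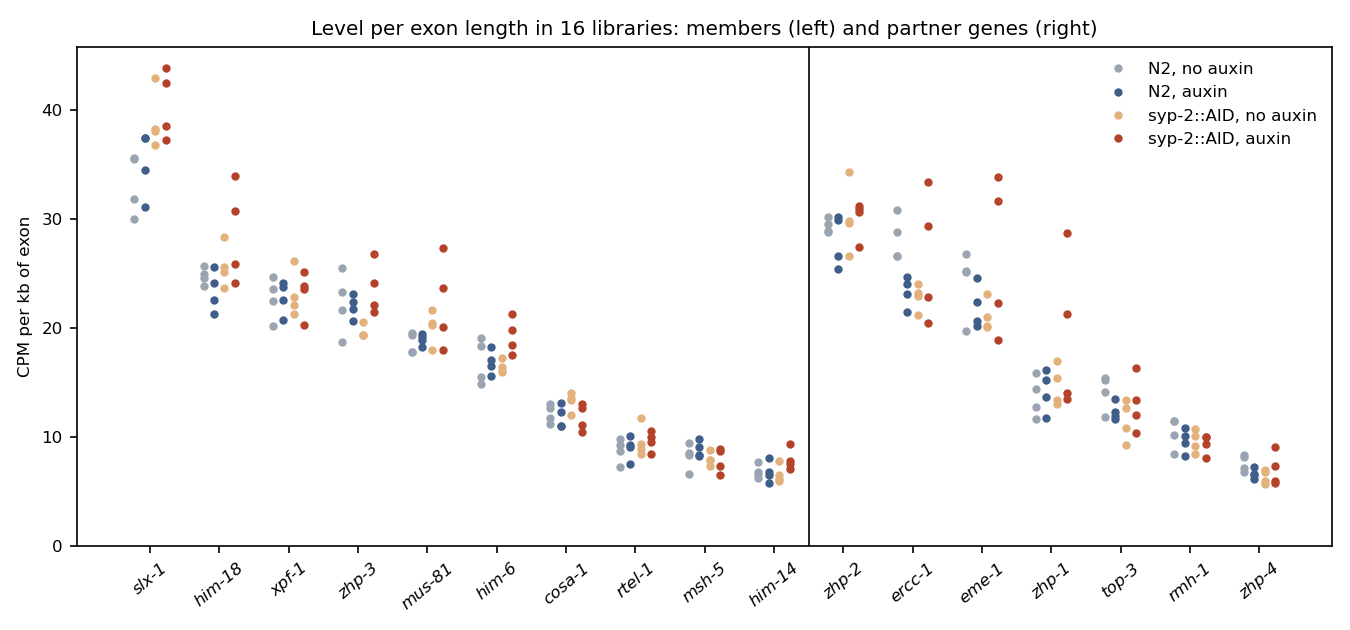
CPM per kb of exon in each of 16 libraries, coloured by group, for the 10 genes in order of their mean (left of the line) and 7 partner genes (right). *slx-1* is the highest at a mean of 36.998 and *him-14* the lowest of the 10 at 7.02. For *eme-1*, *ercc-1* and *zhp-1*, 2 auxin-treated *syp-2::AID* libraries (replicates 3 and 4) lie above every untreated library of that strain.

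In the neighbouring processes few genes were called. None of 15 homologous recombination repair genes and none of 10 SC and axis genes passed edgeR's test in any of the 5 comparisons. On auxin in *syp-2::AID* worms 2 and 1 of them were under 0.05 unadjusted, beside 30% of all genes. DESeq2 called 1 of the repair genes, *smc-5*, between untreated strains (named after its value was seen, like the others here that were called only under an alternative). Without *syp-2::AID* auxin replicates 3 and 4, edgeR called *smc-5* as higher and *com-1* and *rpa-2* as lower on auxin in N2 worms. It called them in the same directions in untreated *syp-2::AID* against N2 worms. That fit called 1577 of 12193 genes in the first comparison and 1511 in the second. With the exon length trend removed edgeR called *fcd-2* as higher on auxin in *syp-2::AID* worms and *rpa-2* as lower in N2 worms. In these comparisons 949 and 1000 of 11544 genes were called. Of 9 genes of DSB formation, 1 rose in *syp-2::AID* worms on auxin, *spo-11*, which encodes the enzyme that makes the breaks, and 1 fell in N2 worms on auxin, *rec-1*. *spo-11* was at 15.0, 18.1, 15.7 and 17.3 CPM without auxin and at 19.0, 18.8, 35.6 and 41.98 CPM on auxin, with the high values in replicates 3 and 4. Its log2 fold change was 0.80 (SE 0.22, adjusted p = 0.0378, edgeR), and between auxin-treated strains it was higher in *syp-2::AID* worms by 1.02 (SE 0.22, adjusted p = 0.0410). Without replicates 3 and 4 these values were 0.19 (adjusted p = 0.764) and 0.41 (adjusted p = 0.284), and the first was not called in 8 of the 16 fits that left out 1 library, replicate 3 (adjusted p = 0.138) and replicate 4 (0.151) among them, nor the second in 11. By limma-voom the adjusted p was 0.0703 and 0.0651, and from only the 8 libraries compared 0.173 and 0.201, so neither was called there, and with the replicate block the second was not (0.0502). Both *spo-11* differences were called by DESeq2 (adjusted p = 0.0132 and 0.0019) and by edgeR with the exon length trend removed (0.0473 and 0.0256). They were also called with RLE factors and with no filter beyond 1 count. *rec-1* was at 35.4 ± 2.78 CPM without auxin and 27.3 ± 0.459 CPM on auxin in N2 worms (SD, n = 4 each). This log2 fold change of -0.37 (SE 0.09, adjusted p = 0.0229, edgeR) was not called in 5 of these 16 fits, with the replicate block (adjusted p = 0.0616) or with no filter beyond 1 count (0.0575). DESeq2 also called *rec-1* between untreated strains (-0.30, adjusted p = 0.0352) and for the difference between responses (0.47, adjusted p = 0.0471), where edgeR gave 0.131 and 0.181.

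Markers of cell types other than the germline moved between groups as well. On auxin in *syp-2::AID* worms 3 of 8 intestine markers fell (*vit-1*, *vit-3* and *vit-4*, which encode yolk proteins), as did 1 of 5 muscle markers (*myo-3*, a body-wall myosin), and *vit-1* also fell in N2 worms. None of these was called in *syp-2::AID* worms without replicates 3 and 4. On auxin in N2 worms that fit called 5 of 8 intestine markers as lower and 1 as higher. With all libraries, 1 of 7 early embryo markers tested rose on auxin in N2 worms and 1 of 4 hypodermis markers tested fell. Intestine markers summed to 57363 and 53892 CPM in replicates 3 and 4, to 77189 and 77567 CPM in replicates 1 and 2 and to 85386 to 97569 CPM in untreated *syp-2::AID* worms. In N2 worms the intestine sum was 88731 to 102907 CPM without auxin and 73440 to 83343 CPM on auxin, without overlap. Muscle markers summed to 1210 and 1258 CPM in replicates 3 and 4 and to 1948 to 3604 CPM in the other 14 libraries. The 10 germline markers summed to 2939, 3144, 2457 and 2076 CPM in auxin replicates 1 to 4 of *syp-2::AID* worms. In untreated ones they summed to 2708 to 3378 CPM. The 2 libraries with the lowest germline marker sums, replicates 3 and 4, had the highest *mus-81*, *him-18* and *him-6*. Both were also lower than replicates 1 and 2 in *msh-5*, *cosa-1* and *rtel-1*. The 8 oocyte markers summed to 8997 and 8030 CPM in replicates 3 and 4 and to 9839 to 13597 CPM in the other 14 libraries. None of the 10 germline and none of the 8 oocyte markers was called on auxin in either strain. With all libraries edgeR called none of them between strains. Unadjusted, 6 of 8 oocyte markers were under 0.05 between treated strains (27.4% of all genes). DESeq2 called 2 of 8 oocyte markers as lower in *syp-2::AID* worms in each strain comparison (576 of 11776 genes untreated, 806 treated). Without replicates 3 and 4, edgeR called 1 oocyte marker as higher and 2 as lower between untreated strains (1511 of 12193 genes). The part of tissue composition in the levels of the 10 CO genes was not tested. Summed over the 10 CO genes, the level was 382 ± 27.4 CPM in untreated N2, 385 ± 22.9 CPM in N2 on auxin, 394 ± 26.98 CPM in untreated *syp-2::AID* and 422 ± 18.4 CPM in auxin-treated *syp-2::AID* worms (SD, n = 4 each), with overlapping ranges.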

How the data were processed

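The 16 libraries hold RNA of whole adult worms. The authors converted base calls with bcl2fastq 2.1.7, aligned reads to ce10 with TopHat2 2.0.11 and counted those falling on genes with featureCounts; they deposited these counts without normalisation. Which annotation and strand setting the counting used is not given in the sources used here.

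The deposited counts were analysed in R 4.3.3 with edgeR 4.0.16 (robust quasi-likelihood test, TMM factors, default filter at 10 counts by group), fitted over all 16 libraries as 4 groups with a shared spread (biological coefficient of variation 0.185). P-values were adjusted by the Benjamini-Hochberg method over 11776 genes, at a threshold of 0.05. CPM values use the scaled totals, and SDs are over the 4 libraries of a group. An exact permutation test (two-sided, on CPM) was run on each member in each comparison of groups.

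Exon lengths, chromosomes and overlaps between genes were read from a WBcel235 annotation, and no coordinates are given because the builds differ. Of the gene names in the count file, 11 had become dates.

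The members, the lists and the tests were chosen with earlier results of these data known. The text names all 10 members, partners of members (*ercc-1*, *eme-1*, *top-3*, *rmh-1* and the *zhp* relatives), genes of the other lists past the threshold (at most 4 a list), *syp-2*, and the genes whose levels followed a member most closely. Counts were simulated for auxin in *syp-2::AID* worms (11776 genes). From them edgeR called 23 of 68 genes changed 1.5-fold, 46 of 66 changed 2-fold, 59 of 66 changed 4-fold and 2 of 11576 unchanged genes. The biological coefficients of variation of the 10 genes ran from 0.0966 (*slx-1*, percentile 9.33 of genes tested) to 0.130 (*rtel-1*, percentile 29.4). The simulated shares need not hold for genes of such low spread. The simulation drew each gene by itself and held no exon length trend in auxin replicates 3 and 4. Its 2 calls of unchanged genes thus do not give the error rate of the real comparison. Alternatives were RLE factors, DESeq2 1.42.0, limma-voom (limma 3.58.1), no filter beyond 1 count, only the 8 libraries compared, the replicate number as a block, each library left out, replicates 3 and 4 in the *syp-2::AID* group on auxin left out, and removal of the exon length trend (11544 genes).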

Additional observations from a re-analysis of the deposited data

Results flagged for a closer look

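In untreated *syp-2::AID* worms, replicate 4 had 26.53 CPM of *zhp-3*, apart from the other 3 libraries, which lay between 24.97 and 25.06 CPM. Its gap to the nearest library was 0.945 of the whole range of the group, above Dixon's critical value at 95% for 4 libraries. The range of this group is narrow, and 40 groups of a gene were examined in this way, of which chance alone would be expected to single out about 5%.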

How the results depend on the processing

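Of 1190 values of the 10 genes recomputed under the alternatives, 1081 kept their sign and their side of the threshold, 4 passed the threshold and 105 turned sign. The values that turned were small, at most 0.17 on the log2 scale with all libraries, none was past the threshold before or after, and the cause was not tested. Without replicates 3 and 4 in the *syp-2::AID* group on auxin, the log2 fold change on auxin turned to -0.039 for *him-18*, 0.14 for *msh-5*, -0.077 for *mus-81* and -0.040 for *slx-1*, the difference between responses to 0.034 for *msh-5*, -0.10 for *mus-81* and 0.059 for *rtel-1*, and the treated strains' difference to 0.11 for *cosa-1* and -0.012 for *zhp-3*. With the exon length trend removed, auxin in *syp-2::AID* worms turned to 0.32 for *msh-5* and -0.031 for *slx-1*, auxin in N2 worms to -0.077 for *mus-81*, -0.041 for *rtel-1*, -0.054 for *slx-1* and -0.080 for *xpf-1*, the difference between responses to 0.29 for *msh-5*, 0.28 for *rtel-1* and 0.022 for *slx-1*, treated strains to 0.18 for *msh-5*, and untreated strains to -0.017 for *him-18* and -0.041 for *xpf-1*. By DESeq2, RLE factors, no filter beyond 1 count and only the 8 libraries compared, auxin in *syp-2::AID* worms turned to -0.039, -0.039, -0.040 and -0.023 for *rtel-1* and to -0.034, -0.034, -0.035 and -0.018 for *xpf-1*, and the treated strains' difference of *xpf-1* to -0.013, -0.013, -0.013 and -0.010. For *xpf-1*, auxin in N2 worms turned to -0.014 by DESeq2 and -0.015 with RLE factors, and the difference between responses to -0.019 by both, -0.043 with no filter beyond 1 count and -0.0028 with the replicate block. On auxin in N2 worms *him-14* turned to 0.0021 with no filter beyond 1 count, 0.0037 from only 8 libraries and 6.6e-05 with the replicate block, and *him-6* to 0.0015 by limma-voom.

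With 1 library left out, further values spanned 0. These ranges were, on auxin in N2 worms, -0.086 to 0.0039 for *cosa-1*, -0.095 to 0.060 for *him-14*, -0.065 to 0.055 for *him-6*, -0.045 to 0.095 for *rtel-1*, -0.050 to 0.045 for *xpf-1* and -0.10 to 0.048 for *zhp-3*. On auxin in *syp-2::AID* worms they were -0.088 to 0.059 for *msh-5*, -0.055 to 0.12 for *rtel-1* and -0.033 to 0.072 for *xpf-1*, and for the difference between responses -0.10 to 0.079 for *rtel-1*, -0.063 to 0.028 for *slx-1* and -0.038 to 0.070 for *xpf-1*. Between treated strains they were -0.058 to 0.045 for *cosa-1* and -0.013 to 0.086 for *xpf-1*, and between untreated strains -0.13 to 0.022 for *him-14*, -0.11 to 0.014 for *him-6*, -0.14 to 0.032 for *msh-5* and -0.043 to 0.065 for *xpf-1*. The 4 values that passed the threshold did so with 1 auxin-treated *syp-2::AID* library left out (*zhp-3* on auxin, *him-18* in 2 fits and *mus-81* between treated strains), so that with 1 library left out 0 to 1 of the 10 genes were called on auxin in *syp-2::AID* worms and 0 to 2 between treated strains.

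Counts over all genes moved far more. On auxin in *syp-2::AID* worms 848 genes were called, 1345 by DESeq2, 393 from only the 8 libraries compared, 444 without auxin replicates 3 and 4, and 506 to 3170 with 1 library left out. In N2 worms 640 were called, 1000 with the length trend removed, 1230 from only 8 libraries, 1577 without replicates 3 and 4 in the *syp-2::AID* group on auxin, and 417 to 749 with 1 library left out. For the difference between responses 2 were called, 131 by DESeq2, 7 with the length trend removed, 0 by limma-voom, 1 without replicates 3 and 4, and 0 to 3 with 1 library left out. Between treated strains 124 were called, 806 by DESeq2, 261 with the length trend removed, 77 with no filter beyond 1 count, 3 from only 8 libraries, 53 without replicates 3 and 4, and 21 to 2405 with 1 library left out. Between untreated strains 103 were called, 576 by DESeq2, 286 with the length trend removed, 278 from only 8 libraries, 1511 without replicates 3 and 4, and 26 to 434 with 1 library left out.

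The replicate numbers did not pair the libraries: the correlation of same-numbered libraries' deviations from their group means was between -0.389 and 0.353 over 24 pairs, and over 0.1 in 5. With the replicate number as a block, 0 of the 10 genes were called in each of the 5 comparisons, and the counts over all genes were 656 on auxin in *syp-2::AID*, 500 on auxin in N2, 0 for the difference between responses, 53 between treated and 56 between untreated strains.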
